A study of Mus musculus with 9 samples.

Results

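The data compared here are 6 of the 9 libraries of an RNA sequencing study of AML12, a mouse hepatocyte line made from a mouse that carries a transgene for human transforming growth factor alpha. In 3 libraries (FFA) the cells had been given free fatty acids. In the other 3 (FFA_SIN) they had been given free fatty acids for 24 h and then free fatty acids together with 200 µM sinomenine for 48 h. Both groups therefore carry the fatty acid load, and the question is what sinomenine changed on top of it. The length of the FFA culture, the fatty acids used and any carrier for sinomenine are not stated, so sinomenine and a difference in culture time cannot be told apart. The third group of the study, in standard medium, was not used. Genes were kept where the 6 libraries averaged 1 FPKM or more (fragments per kilobase of gene, scaled to mapped reads), which left 11628 of the 30350 genes in the table. The lowest member stood at a mean of 1.0 FPKM and the highest gene left out at 0.9999 FPKM.

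Sinomenine is an alkaloid of the climbing plant Sinomenium acutum and is used against rheumatic disease, where it is known for lowering inflammatory mediators. Hepatocytes under a fatty acid load store the excess as triglyceride in lipid droplets and burn part of it in mitochondria and peroxisomes, under the nuclear receptor PPAR alpha. A load or a drug that disturbs protein synthesis, membranes or oxygen use is read out by a small set of sensors. The kinases of the integrated stress response raise the transcription factor ATF4, the sensors of the endoplasmic reticulum (ER) raise chaperones, HIF factors raise glycolysis, and TFEB and TFE3 raise lysosomal genes.

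The table implied 43201346 to 67707660 reads per FFA library and 57912281 to 71391844 reads per FFA_SIN library. For a gene of 2000 bases, a count of 0 reads allows up to 3 reads, or 0.021 to 0.0347 FPKM by library, for counting error only. Replicates were not copies of each other, and libraries of the same group differed less (chi-square per gene 4.814 to 8.499) than libraries of different groups (34.258 to 46.588). Nothing says that the replicates were separate cultures, so p-values measure only how these libraries vary, and that variation may be technical. Levels below are in FPKM, either library by library or as a mean ± SD (n = 3 in each group). Log2 fold changes are on the log2(FPKM + 1) scale with their standard error (SE), which understates changes of low genes, and adjusted p-values come from limma over all 11628 genes. Genes said to have risen or fallen passed that test, and where only means and the log2 fold change are printed the adjusted p was below 0.01. A gene with a mean below 1 FPKM in a group could pass the filter through the other group alone. Fabp6, Nr0b2, Wfdc3 and Try5 did so through FFA_SIN, and Creb3l1, Tnf, Cyp1a1 and Fabp1 through FFA. For such genes the p-value is not support apart from the filter.

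Many genes differed by a little between FFA_SIN and FFA, and few by a lot. Of the 11628 genes tested, 3406 (29.3%) passed the threshold of 0.05, with 1559 (13.4%) higher and 1847 (15.9%) lower in FFA_SIN. The median size of the log2 fold change among them was 0.2 and the 90th percentile 0.47. Changes of at least 2-fold on the same scale were reached by 65 genes (0.559%), of which 28 rose (0.241%) and 37 fell (0.318%). The 3 libraries of the groups did not overlap for 5282 genes (45.4%). The median over all genes tested was -0.01, and every list below is set beside that value and beside the shares of 13.4% and 15.9%. Which direction holds more genes depends on the scaling: with median-of-ratios size factors 1701 rose and 1678 fell. Levels come from bulk RNA, in which fewer cells of a kind and less RNA per cell cannot be told apart.

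**Figure D1:**
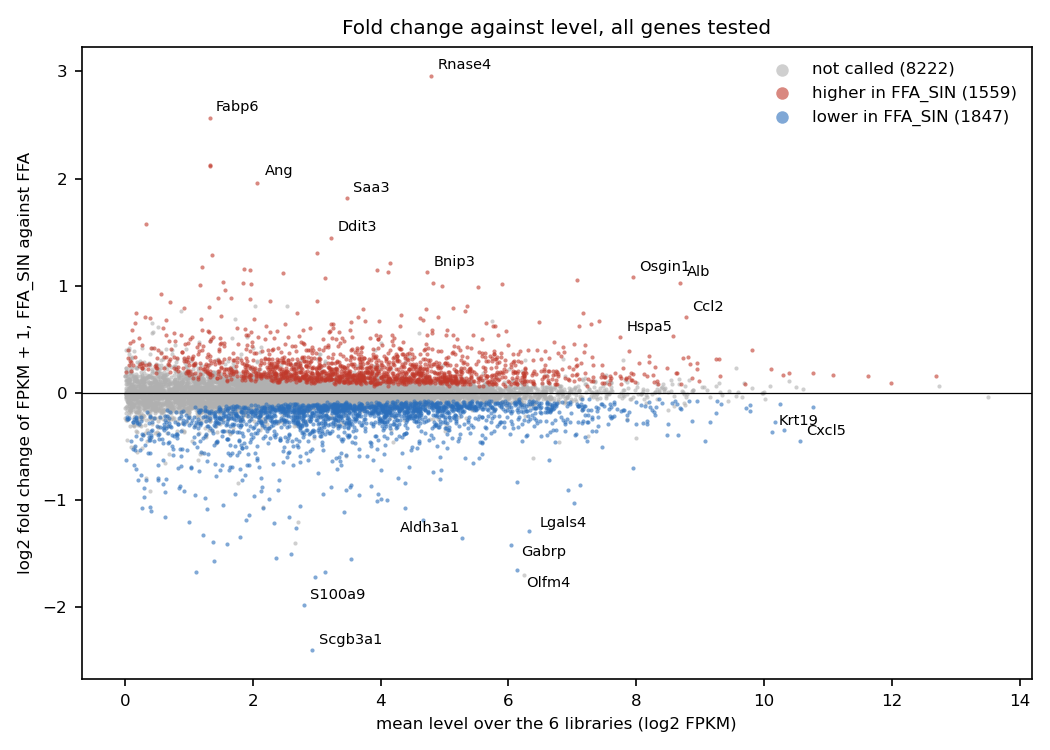
Log2 fold change of FPKM + 1 between FFA_SIN and FFA (vertical) against the mean level over the 6 libraries in log2 FPKM (horizontal), with a point for each of the 11628 genes tested, red for the 1559 called higher, blue for the 1847 called lower and grey for the rest. Most called genes lie close to 0, and Rnase4 (2.96) and Scgb3a1 (-2.40) stand at the upper and lower end.

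The plot of fold change against level shows a dense band around 0 with a sparse fringe of large changes, up to the level of Alb. The largest rise was that of Rnase4, and its neighbour Ang, which encodes a further secreted ribonuclease, rose too. Rnase4 (ENSMUSG00000021876), a secreted ribonuclease of liver, stood at 4.84, 6.2 and 5.57 FPKM in the FFA libraries and 50.2, 49.2 and 49.9 FPKM in the FFA_SIN libraries. Ang, angiogenin, a ribonuclease of the same family that promotes vessel growth and cleaves tRNA under stress, stood at 1.31, 0.932 and 1.11 FPKM in the FFA libraries and 6.73, 7.08 and 7.92 FPKM in the FFA_SIN libraries. The FFA_SIN libraries of both genes lay far above every FFA library. The log2 fold changes were 2.96 ± 0.07 (SE, adjusted p = 1.02e-06) for Rnase4 and 1.96 ± 0.08 (SE, adjusted p = 6.48e-06) for Ang. Of the 2 RefSeq promoter windows of Rnase4, 1 is the same 300 bases as that of Ang and the other, at chr14:51095750-51096049, is not. Which start these cells use was not tested, and reads may be split between the genes where their transcripts overlap. The shared window is shown because both genes rose (250 before and 50 after the start, GRCm38.p6, chr14:51090827-51091126, plus strand).
Rnase4 and Ang: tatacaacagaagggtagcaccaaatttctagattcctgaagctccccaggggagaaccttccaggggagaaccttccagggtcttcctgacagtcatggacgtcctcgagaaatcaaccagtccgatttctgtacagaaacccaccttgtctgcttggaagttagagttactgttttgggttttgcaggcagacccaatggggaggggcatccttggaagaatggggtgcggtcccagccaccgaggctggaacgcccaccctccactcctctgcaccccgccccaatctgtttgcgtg

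Fabp6, the ileal bile acid binding protein and a classical target of the bile acid receptor FXR, was listed at 0 in all 3 FFA libraries and at 6.4, 4.11 and 4.5 FPKM in the FFA_SIN libraries (log2 fold change 2.57 ± 0.13, adjusted p = 1.82e-05). No fold is given against a group listed at 0. Nr0b2, which encodes the repressor SHP and is a further textbook target of FXR, stood at 0.123, 0.165 and 0.104 FPKM in the FFA libraries and 2.61, 2.44 and 2.08 FPKM in the FFA_SIN libraries (log2 fold change 1.58 ± 0.08, adjusted p = 1.45e-05). Both Fabp6 and Nr0b2 passed the filter only through their FFA_SIN levels. Slc51b, a subunit of the bile acid exporter of the basal membrane, was below the filter and so was not tested, at 0.0979, 0 and 0.167 FPKM in the FFA libraries and 1.29, 1.19 and 1.15 FPKM in the FFA_SIN libraries. The FXR gene Nr1h4 itself fell slightly, from 13.6 ± 0.0833 to 12.6 ± 0.546 FPKM (log2 fold change -0.11 ± 0.03, adjusted p = 0.0445). Of the 3 fibrinogen chains, which FXR is reported to raise in human hepatocytes, Fga rose from 1.16 ± 0.125 to 3.36 ± 0.177 FPKM (log2 fold change 1.01 ± 0.06) and Fgb from 2.24 ± 0.118 to 5.57 ± 0.332 FPKM (log2 fold change 1.02 ± 0.05). Fgg was below the filter, at 0.431, 0.321 and 0.318 FPKM in the FFA libraries and 0.614, 0.479 and 0.703 FPKM in the FFA_SIN libraries. Fgb is also a member of the acute phase and complement list described further below, so its rise is not particular to FXR targets. Slc10a2, the bile acid importer, rose by less, from 5.87 ± 0.25 to 6.94 ± 0.108 FPKM (log2 fold change 0.21 ± 0.04). Some other genes tied to bile acids were near 0 with overlapping groups. Abcb11, the bile salt exporter and a classical FXR target, had means of 0.0153 and 0.00544 FPKM, and Slc51a, the partner of Slc51b, had means of 0.00656 and 0.0166 FPKM. Cyp7a1, the rate-limiting enzyme of bile acid synthesis, was at most 0.174 FPKM in any library. Cyp8b1, a further enzyme of that synthesis, was near 0 too and not tested, but its groups did not overlap (means of 0.00791 FPKM in FFA and 0.0497 FPKM in FFA_SIN). The bile acid and fibrinogen genes of this paragraph were picked and grouped after their values had been seen, and a part of FXR in them was not tested.

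Saa3, an acute phase protein made outside the classical liver set, stood at 4.71, 4.08 and 4.25 FPKM in the FFA libraries and 17.7, 18.2 and 17.8 FPKM in the FFA_SIN libraries (log2 fold change 1.82 ± 0.05, adjusted p = 1.06e-06). Hsd17b13, a lipid droplet enzyme linked in humans to the course of fatty liver disease, stood at 3.99, 3.9 and 4.71 FPKM in the FFA libraries and 11.7, 12 and 11.7 FPKM in the FFA_SIN libraries (log2 fold change 1.31 ± 0.06, adjusted p = 9.89e-06). Both genes had their 3 FFA_SIN libraries well above the FFA libraries. Slc17a2, a phosphate transporter of the same family as the renal carriers, rose from 1.87 ± 0.112 to 5.39 ± 0.208 FPKM (log2 fold change 1.16 ± 0.05). Its relative Slc17a1 rose from 42.4 ± 0.34 to 66.3 ± 1.5 FPKM (log2 fold change 0.63 ± 0.02). Shank2, a scaffold protein best known from synapses, rose from 3.12 ± 0.0954 to 7.98 ± 0.0402 FPKM (log2 fold change 1.12 ± 0.03). Among genes that were low in FFA, Wfdc3 rose from 0.3 ± 0.0346 to 4.7 ± 0.494 FPKM (log2 fold change 2.13 ± 0.07), the trypsin gene Try5 rose from 0.316 ± 0.135 to 4.72 ± 0.441 FPKM (log2 fold change 2.12 ± 0.09). Acmsd, an enzyme of tryptophan breakdown, rose from 1.07 ± 0.0933 to 4.05 ± 0.28 FPKM (log2 fold change 1.29 ± 0.06). Rps27a, a ribosomal protein fused to ubiquitin, rose from 88.3 ± 23.2 to 180 ± 7.96 FPKM (log2 fold change 1.05 ± 0.16). Gm8430, annotated as a processed pseudogene, fell from 35.9 ± 7.39 to 15 ± 1.04 FPKM (log2 fold change -1.18 ± 0.14). Library FFA 3 stood apart in both, at 115 FPKM for Rps27a against 78.9 and 71.4 in the other FFA libraries, and ribosomal protein genes share reads with near-identical copies, so these 2 values are uncertain.

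**Figure D2:**
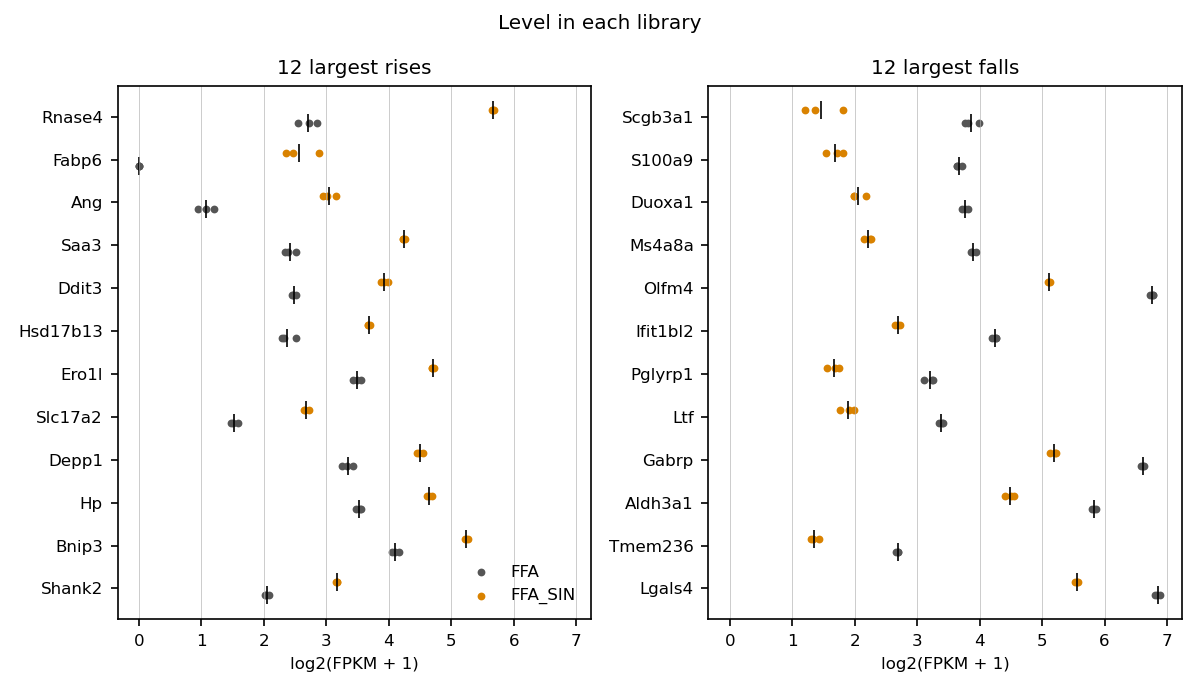
Level in log2(FPKM + 1) of the 12 largest rises (left) and 12 largest falls (right) among protein-coding and long noncoding genes with a curated symbol and at least 5 FPKM in the higher group, each dot a library, grey for FFA and orange for FFA_SIN, and each tick the mean of the 3 libraries. The libraries of the groups do not overlap for any of these 24 genes, which the choice of the genes required, and Fabp6 lies at 0 in every FFA library.

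The plot of levels by library shows that the libraries of a group lay close together relative to the gap between the groups. Scgb3a1, a secretoglobin of airway and other glandular epithelia, stood at 14.8, 12.6 and 13.1 FPKM in the FFA libraries and 1.56, 1.3 and 2.51 FPKM in the FFA_SIN libraries (log2 fold change -2.40 ± 0.15, adjusted p = 4.36e-05). S100a9, a calcium-binding alarmin of neutrophils and inflamed epithelia, stood at 11.5, 12.2 and 11.5 FPKM in the FFA libraries and 2.28, 1.92 and 2.5 FPKM in the FFA_SIN libraries (log2 fold change -1.98 ± 0.07, adjusted p = 2.91e-06). Its partner S100a8 fell by less, from 4.28 ± 0.363 to 2.6 ± 0.351 FPKM (log2 fold change -0.55 ± 0.08). Olfm4, a glycoprotein of intestinal crypts and neutrophils, was much more abundant and stood at 109, 105 and 109 FPKM in the FFA libraries and 33.8, 33.5 and 33.2 FPKM in the FFA_SIN libraries (log2 fold change -1.65 ± 0.02, adjusted p = 1.98e-07). Every FFA_SIN library of these genes was below every FFA library.

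Duoxa1, the maturation factor of the hydrogen peroxide producing dual oxidases, fell from 12.6 ± 0.445 to 3.15 ± 0.325 FPKM (log2 fold change -1.72 ± 0.06). The oxidase Duox2 fell from 3.73 ± 0.107 to 1.98 ± 0.0715 FPKM (log2 fold change -0.67 ± 0.04). Pglyrp1, a peptidoglycan receptor, fell from 8.17 ± 0.458 to 2.16 ± 0.211 FPKM (log2 fold change -1.54 ± 0.06). Lactoferrin, Ltf, which binds iron in secretions, fell from 9.45 ± 0.258 to 2.7 ± 0.301 FPKM (log2 fold change -1.50 ± 0.06). The antibody transporter of epithelia, Pigr, fell from 8.54 ± 0.236 to 3.27 ± 0.109 FPKM (log2 fold change -1.16 ± 0.04). The mucin Muc13 fell from 4.83 ± 0.143 to 1.2 ± 0.136 FPKM (log2 fold change -1.41 ± 0.06) and the secreted mucin Muc5b from 20.7 ± 0.159 to 10.3 ± 0.111 FPKM (log2 fold change -0.94 ± 0.02). Lgals4, a galectin of gut epithelium, fell from 114 ± 3.37 to 46 ± 1 FPKM (log2 fold change -1.29 ± 0.03). Gabrp, an epithelial subunit of the GABA-A receptor, fell from 96.5 ± 1.6 to 35.4 ± 1.33 FPKM (log2 fold change -1.42 ± 0.03). Aldh3a1, which oxidizes aldehydes and is under the aryl hydrocarbon receptor, stood at 54.8, 56.1 and 57.3 FPKM in the FFA libraries and 21.7, 20.3 and 22.4 FPKM in the FFA_SIN libraries (log2 fold change -1.35 ± 0.04, adjusted p = 1.75e-06). Ifit1bl2, of the interferon-induced IFIT family, fell from 17.9 ± 0.438 to 5.44 ± 0.156 FPKM (log2 fold change -1.55 ± 0.03). Ms4a8a and Tmem236, membrane proteins, fell, Ms4a8a from 13.8 ± 0.483 to 3.65 ± 0.19 FPKM (log2 fold change -1.67 ± 0.04) and Tmem236 from 5.42 ± 0.062 to 1.55 ± 0.12 FPKM (log2 fold change -1.34 ± 0.05).

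Gene lists of pathways and cell functions are described by counts and medians only, with the larger ones set side by side.

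**Figure D3:**
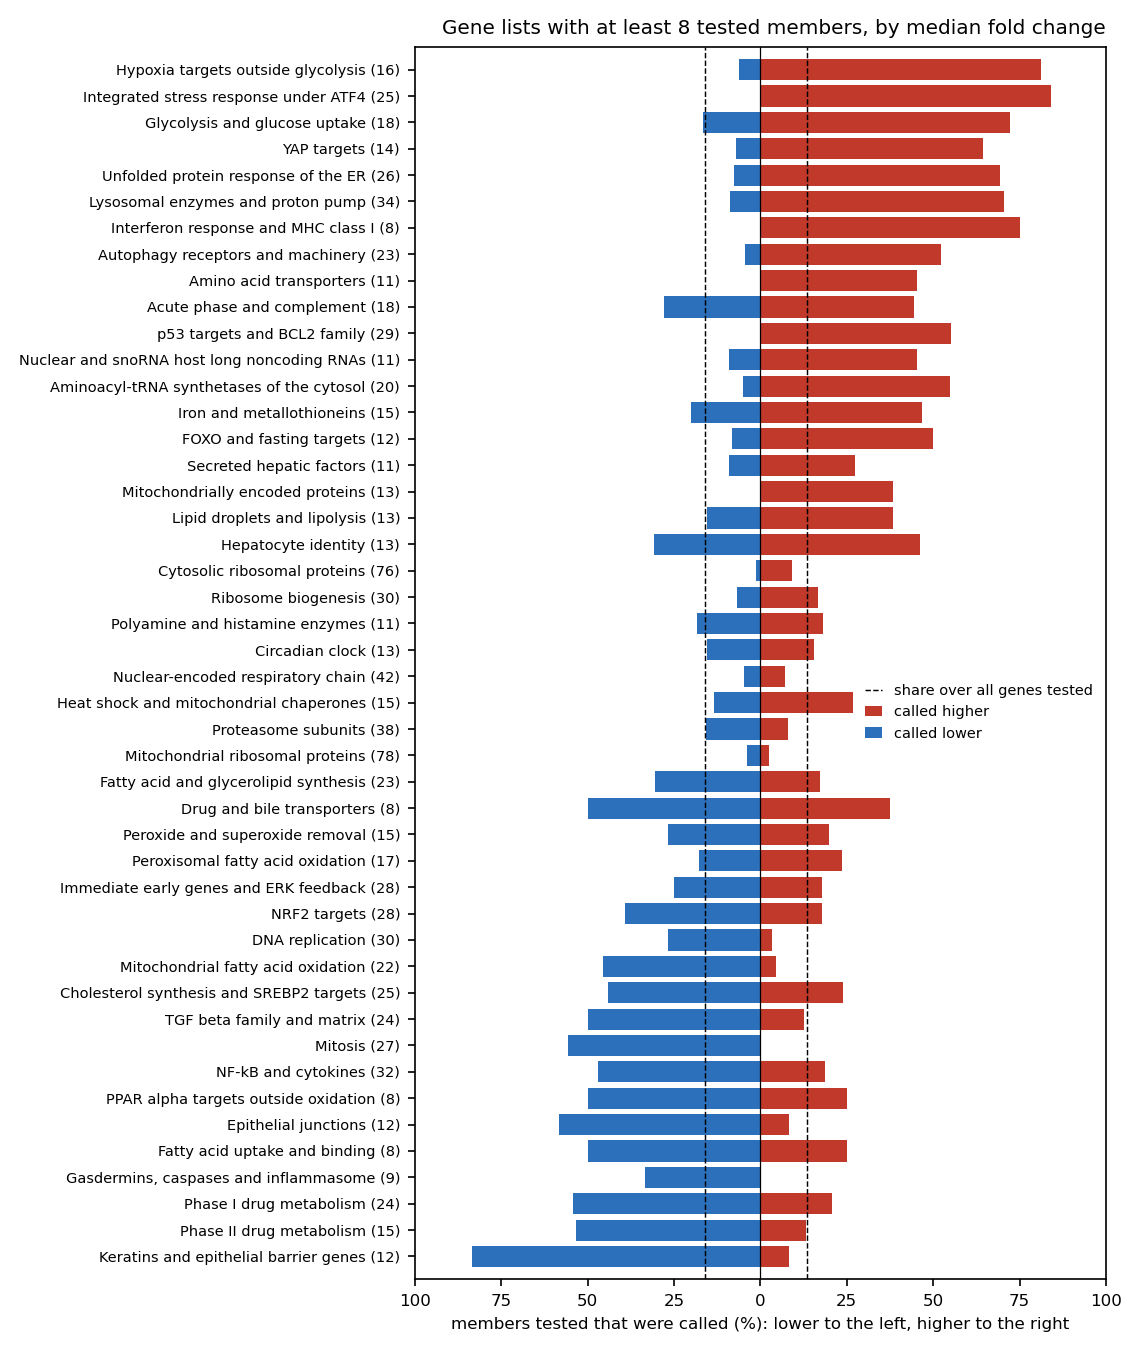
Share of the tested members of each gene list called higher (red, to the right) or lower (blue, to the left) in FFA_SIN, in percent, for lists with at least 8 tested members (their number in parentheses), ordered by the median log2 fold change. Dashed lines mark the shares over all genes tested, 13.4% higher and 15.9% lower. Hypoxia targets (median 0.43) stand at the top and keratin and barrier genes (median -0.39) at the bottom.

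The bars of called members show where lists depart from the dashed lines of all genes. The integrated stress response under ATF4 had 21 of 25 tested members higher and 0 lower, at a median log2 fold change of 0.34. Ddit3 (ENSMUSG00000025408), which encodes CHOP, the factor tied to cell death under lasting stress, stood at 4.46, 4.71 and 4.51 FPKM in the FFA libraries and 14.1, 13.6 and 14.9 FPKM in the FFA_SIN libraries (log2 fold change 1.45 ± 0.04, adjusted p = 1.41e-06). All 3 FFA_SIN libraries were above all FFA libraries. The rise of Atf4 itself was small, from 99 ± 1.04 to 115 ± 2.79 FPKM (log2 fold change 0.21 ± 0.02). Atf3, a stress factor downstream of ATF4, stood at 5.58, 5.15 and 5.55 FPKM in the FFA libraries and 10.6, 10.8 and 10.6 FPKM in the FFA_SIN libraries (log2 fold change 0.86 ± 0.03, adjusted p = 6.23e-06). Chac1, which breaks down glutathione, stood at 9.21, 9.79 and 9.61 FPKM in the FFA libraries and 16.7, 16.1 and 18.3 FPKM in the FFA_SIN libraries (log2 fold change 0.78 ± 0.05, adjusted p = 4.63e-05). Trib3, a pseudokinase that feeds back on ATF4 and CHOP, stood at 19, 18.9 and 19.5 FPKM in the FFA libraries and 32.7, 33.9 and 33.8 FPKM in the FFA_SIN libraries (log2 fold change 0.78 ± 0.02, adjusted p = 2.69e-06). In all 3 genes every FFA_SIN library was above every FFA library.

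Further down the ATF4 list, Ppp1r15a, which encodes GADD34 and ends the stress by restoring translation, rose from 8.47 ± 0.209 to 12.2 ± 0.627 FPKM (log2 fold change 0.47 ± 0.04). Cth, which makes cysteine, rose from 7.2 ± 0.5 to 11.2 ± 0.214 FPKM (log2 fold change 0.58 ± 0.05), Nupr1, a small stress cofactor, rose from 4.64 ± 0.463 to 7.1 ± 0.404 FPKM (log2 fold change 0.52 ± 0.07). Atf5, a factor of the mitochondrial stress response, rose from 39.8 ± 2.6 to 56.7 ± 1.01 FPKM (log2 fold change 0.50 ± 0.05). The amino acid enzymes Asns, which makes asparagine, and Gpt2, which makes alanine, rose, Asns from 56.4 ± 1 to 66.1 ± 1.36 FPKM (log2 fold change 0.22 ± 0.02) and Gpt2 from 10.4 ± 0.189 to 13.8 ± 0.0656 FPKM (log2 fold change 0.38 ± 0.02). The secreted stress factor Gdf15 rose from 7.26 ± 0.579 to 9.92 ± 0.553 FPKM (log2 fold change 0.40 ± 0.06), whereas Fgf21, the fasting hormone, was listed at 0 in all FFA libraries, had a mean of 0.0762 FPKM in FFA_SIN and was not tested. Psat1 of serine synthesis (log2 fold change 0.07 ± 0.02, adjusted p = 0.0656), Cbs (log2 fold change -0.02 ± 0.03, adjusted p = 0.753), Cebpg (log2 fold change -0.03 ± 0.03, adjusted p = 0.546) and Pycr1 (log2 fold change 0.15 ± 0.06, adjusted p = 0.111) were the 4 tested members that did not pass.

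Promoter sequences of the ATF4 list are shown because the genes moved together and ATF4 is known to bind a composite element with C/EBP factors. The letters TGATGNAA, searched on both strands in windows of 250 bases before to 50 after the start, occurred in 7 of the 26 list genes with a RefSeq window (26.9%), against 4.51% of all 27025 genes with one. The list was made of genes placed under ATF4, so a share above that of all genes is not a result of these data. Of the 7, 6 were tested and 5 rose, where 21 of 25 tested members of the whole list rose. The 5 that rose are Trib3 (chr2:152344013-152344072, minus strand), Chac1 (chr2:119351023-119351082, plus strand), Atf3 (chr1:191183410-191183469, minus strand), Nupr1 (chr7:126625547-126625606, minus strand) and Asns (chr6:7693199-7693258, minus strand), all GRCm38.p6. Capitals mark the match, on the gene's strand or as its reverse complement. A match is a description of these letters, not a site.
Trib3: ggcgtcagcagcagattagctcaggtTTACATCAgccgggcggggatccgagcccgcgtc
Chac1: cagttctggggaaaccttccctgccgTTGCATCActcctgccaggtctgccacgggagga
Atf3: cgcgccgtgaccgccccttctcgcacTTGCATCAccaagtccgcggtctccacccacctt
Nupr1: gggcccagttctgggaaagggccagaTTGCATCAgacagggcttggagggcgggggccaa
Asns: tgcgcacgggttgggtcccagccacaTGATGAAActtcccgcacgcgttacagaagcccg

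Amino acid supply and charging moved with the ATF4 list by smaller amounts. Of 11 tested amino acid transporters, 5 were higher and 0 lower (median 0.12). Slc3a2, the heavy chain that amino acid exchangers need at the membrane, stood at 106, 109 and 110 FPKM in the FFA libraries and 168, 166 and 171 FPKM in the FFA_SIN libraries (log2 fold change 0.63 ± 0.02, adjusted p = 3.48e-06). Slc38a2, a carrier of neutral amino acids, rose from 42.2 ± 0.522 to 54 ± 0.801 FPKM (log2 fold change 0.35 ± 0.02). Slc7a11, the cystine importer and a known ATF4 target, did not pass (from 3.6 ± 0.0609 to 3.63 ± 0.0831 FPKM, log2 fold change 0.01 ± 0.03, adjusted p = 0.874). Among the 20 cytosolic aminoacyl-tRNA synthetases, which load tRNAs, 11 were higher and 1 lower (median 0.11). The alanyl enzyme Aars rose from 23.4 ± 0.216 to 27.6 ± 0.693 FPKM (log2 fold change 0.23 ± 0.03) and the asparaginyl enzyme Nars from 70.5 ± 1.37 to 82.7 ± 0.227 FPKM (log2 fold change 0.23 ± 0.02).

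The unfolded protein response of the ER had 18 of 26 tested members higher and 2 lower, at a median of 0.18. Hspa5 (ENSMUSG00000026864), the main ER chaperone BiP, stood at 178, 175 and 176 FPKM in the FFA libraries and 255, 255 and 253 FPKM in the FFA_SIN libraries (log2 fold change 0.52 ± 0.02, adjusted p = 2.75e-06). The group levels were far apart compared with the spread within each. The chaperones Hsp90b1 and Hyou1 rose, Hsp90b1 from 102 ± 1.79 to 132 ± 3.14 FPKM (log2 fold change 0.38 ± 0.02) and Hyou1 from 15.3 ± 0.339 to 21.4 ± 0.6 FPKM (log2 fold change 0.45 ± 0.03). The co-chaperone Dnajc3, an inhibitor of the kinase PERK, rose from 12.7 ± 0.305 to 18.3 ± 0.802 FPKM (log2 fold change 0.50 ± 0.04). Creld2, an ER-resident foldase, rose from 35.4 ± 1.39 to 52 ± 1.22 FPKM (log2 fold change 0.54 ± 0.03). Xbp1, the factor whose mRNA the sensor IRE1 splices, went the other way, from 74 ± 0.784 to 56.7 ± 0.999 FPKM (log2 fold change -0.38 ± 0.02). The sensor gene Ern1 did not pass (log2 fold change 0.07 ± 0.03, adjusted p = 0.135). FPKM of the whole Xbp1 gene do not separate its spliced form. Outside the ER, 4 of 15 tested heat shock and mitochondrial chaperones were higher and 2 lower (median 0.01). In that list Lonp1, the mitochondrial protease, rose from 38.3 ± 0.911 to 45 ± 1.45 FPKM (log2 fold change 0.22 ± 0.03). Hspa8, the constitutive cytosolic chaperone, fell from 401 ± 5.94 to 381 ± 2.66 FPKM (log2 fold change -0.07 ± 0.02, adjusted p = 0.0242).

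Genes known to respond to low oxygen were mostly higher. Of the hypoxia targets outside glycolysis, 13 of 16 tested were higher and 1 lower (median 0.43), the lower one being Hif1a itself, from 24.7 ± 0.335 to 22.3 ± 0.837 FPKM (log2 fold change -0.15 ± 0.03, adjusted p = 0.0113). Ero1l, the oxidase that drives disulfide formation in the ER and so also belongs to ER biology, stood at 10.8, 9.72 and 10.3 FPKM in the FFA libraries and 24.9, 25.4 and 24.8 FPKM in the FFA_SIN libraries (log2 fold change 1.21 ± 0.04, adjusted p = 2.34e-06). Bnip3 (ENSMUSG00000078566), a receptor for the removal of mitochondria, stood at 16.2, 16.9 and 15.6 FPKM in the FFA libraries and 36.7, 37.5 and 36.1 FPKM in the FFA_SIN libraries (log2 fold change 1.13 ± 0.03, adjusted p = 1.91e-06). Every FFA_SIN library lay above every FFA library in both. Ndrg1 rose from 38.7 ± 0.674 to 61.3 ± 0.294 FPKM (log2 fold change 0.65 ± 0.02), the growth factor Vegfa from 22.4 ± 0.49 to 33.5 ± 0.672 FPKM (log2 fold change 0.56 ± 0.03), the collagen hydroxylase P4ha2 from 7.34 ± 0.0722 to 11.7 ± 0.211 FPKM (log2 fold change 0.61 ± 0.03) and the oxygen sensor Egln1 from 15.2 ± 0.247 to 22 ± 0.972 FPKM (log2 fold change 0.51 ± 0.03). Egln3, another oxygen sensor, did not pass (log2 fold change 0.06 ± 0.02, adjusted p = 0.117), and Car9, a frequent hypoxia marker, stayed below the filter with means of 0.722 FPKM in FFA and 0.577 FPKM in FFA_SIN.

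Glycolysis followed, with 13 of 18 tested genes higher and 3 lower (median 0.28). The abundant enzymes Pgk1 and Aldoa rose, Pgk1 from 398 ± 4.48 to 505 ± 10.6 FPKM (log2 fold change 0.34 ± 0.02) and Aldoa from 376 ± 4.92 to 473 ± 7.79 FPKM (log2 fold change 0.33 ± 0.02). Lactate dehydrogenase Ldha rose from 459 ± 6.93 to 534 ± 3.74 FPKM (log2 fold change 0.22 ± 0.02). The glucose transporter Slc2a1 rose from 23.1 ± 0.465 to 29.9 ± 0.755 FPKM (log2 fold change 0.36 ± 0.03). Pdk1, a kinase that inhibits pyruvate dehydrogenase, rose from 9.45 ± 0.124 to 13.9 ± 0.3 FPKM (log2 fold change 0.52 ± 0.03). Pfkp, a phosphofructokinase, rose from 3.99 ± 0.143 to 6.12 ± 0.0849 FPKM (log2 fold change 0.51 ± 0.03). The 3 that fell were the hexokinases Hk1 (log2 fold change -0.09 ± 0.02, adjusted p = 0.016) and Hk2 (log2 fold change -0.31 ± 0.06, adjusted p = 0.00914) and the pyruvate kinase Pkm (log2 fold change -0.07 ± 0.02, adjusted p = 0.0471).

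The promoters of these genes are shown for the core that HIF factors are known to bind. The letters ACGTG, on either strand and in the same windows, occurred in 12 of 14 hypoxia genes with a window (85.7%) and 13 of 21 glycolysis genes (61.9%), against 21.8% of all genes with a window. These letters were chosen after the values had been seen, and they also lie inside the E-box CACGTG used further below. HIF factors are known to raise genes of both lists, so shares above that of all genes are not a result of these data. Of the hypoxia genes with a match, 11 were tested, 9 rose and 1 fell. Of the glycolysis genes with a match, 12 were tested, 7 rose and 3 fell, and the 3 were Hk1, Hk2 and Pkm. The stretches are from Bnip3 (chr7:138909577-138909636, minus strand), Ero1l, named Ero1a in RefSeq (chr14:45318603-45318662, minus strand), P4ha2 (chr11:54100824-54100948, plus strand) and Ldha (chr7:46845644-46845788, plus strand), all GRCm38.p6, with every match on either strand in capitals.
Bnip3: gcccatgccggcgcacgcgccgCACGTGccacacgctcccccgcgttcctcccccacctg
Ero1l: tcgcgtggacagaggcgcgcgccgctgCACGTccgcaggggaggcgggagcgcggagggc
P4ha2: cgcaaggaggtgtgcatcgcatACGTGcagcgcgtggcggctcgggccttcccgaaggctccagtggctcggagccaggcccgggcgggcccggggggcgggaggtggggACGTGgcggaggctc
Ldha: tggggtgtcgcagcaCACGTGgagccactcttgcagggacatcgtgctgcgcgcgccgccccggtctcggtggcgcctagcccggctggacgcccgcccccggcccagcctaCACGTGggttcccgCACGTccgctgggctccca

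Lysosomal genes rose broadly and by small amounts. Of the lysosomal enzymes, membrane proteins and proton pump subunits, 24 of 34 tested were higher and 3 lower (median 0.17). The sialidase Neu1 stood at 29, 30.2 and 30.1 FPKM in the FFA libraries and 40.6, 40.6 and 41.4 FPKM in the FFA_SIN libraries (log2 fold change 0.44 ± 0.02, adjusted p = 2.15e-05), and the hexosaminidase subunit Hexa at 33.8, 34.9 and 34.9 FPKM in the FFA libraries and 47.5, 47 and 46.4 FPKM in the FFA_SIN libraries (log2 fold change 0.43 ± 0.02, adjusted p = 2.06e-05). In both genes the groups did not overlap. The membrane protein Lamp1 rose from 327 ± 1.49 to 385 ± 4.65 FPKM (log2 fold change 0.23 ± 0.02), the tetraspanin Cd63 from 140 ± 4.56 to 177 ± 0.317 FPKM (log2 fold change 0.34 ± 0.03), the calcium channel Mcoln1 from 11.5 ± 0.132 to 14.1 ± 0.203 FPKM (log2 fold change 0.27 ± 0.02) and the pump subunit Atp6v1c1 from 25.7 ± 0.0786 to 31.2 ± 0.581 FPKM (log2 fold change 0.27 ± 0.02). The galactosidase Glb1 fell from 23.2 ± 0.633 to 19 ± 0.218 FPKM (log2 fold change -0.27 ± 0.03). The gene of the regulator Tfeb fell too, from 3.85 ± 0.115 to 3.17 ± 0.255 FPKM (log2 fold change -0.22 ± 0.05, adjusted p = 0.0191), a call that was lost without a filter on low values and when FFA replicate 2 or 3 or FFA_SIN replicate 1 or 2 was left out. Tfe3 did not pass (log2 fold change 0.03 ± 0.04, adjusted p = 0.596).

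In the autophagy list 12 of 23 tested genes were higher and 1 lower (median 0.13). Flcn, which with its partners Fnip1 and Fnip2 acts as a brake on TFEB and TFE3, stood at 11.7, 11.5 and 11.8 FPKM in the FFA libraries and 16.5, 16.8 and 17.7 FPKM in the FFA_SIN libraries (log2 fold change 0.51 ± 0.03, adjusted p = 4.36e-05). Fnip1 rose from 9.82 ± 0.34 to 13.3 ± 0.161 FPKM (log2 fold change 0.40 ± 0.03) and Fnip2 from 2.92 ± 0.0967 to 3.8 ± 0.0951 FPKM (log2 fold change 0.29 ± 0.04). The cargo receptor Sqstm1 rose from 239 ± 2.99 to 290 ± 5.65 FPKM (log2 fold change 0.28 ± 0.02). The vesicle proteins Map1lc3b and Gabarapl1 rose, Map1lc3b from 35.1 ± 0.462 to 41.3 ± 0.357 FPKM (log2 fold change 0.23 ± 0.02) and Gabarapl1 from 48 ± 0.827 to 59.4 ± 1.24 FPKM (log2 fold change 0.30 ± 0.02). The fall was in the receptor Tax1bp1, from 28.6 ± 0.365 to 23.8 ± 0.698 FPKM (log2 fold change -0.26 ± 0.03).

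The E-box CACGTG, which TFEB and TFE3 are known to bind as MYC and clock factors do, occurred in 10 of 28 lysosomal genes with a window (35.7%) and 4 of 20 autophagy genes (20%), against 8.09% of all genes with a window. TFEB and TFE3 are known to raise lysosomal genes, so a share above that of all genes is not a result of these data. All 10 lysosomal genes with a match were tested, and 9 rose and 1 fell. In the whole lysosomal list, 24 of 34 tested members rose and 3 fell. Of the 4 autophagy genes, all tested, 1 rose and 0 fell. Lamp1 (chr8:13159081-13159200, plus strand) and Mcoln1 (chr8:3500429-3500508, plus strand), GRCm38.p6, are shown as examples, with 4 and 2 copies in capitals. Other genes of the lysosomal list, Ctsa, Ctsd and Gla, also hold repeated copies.
Lamp1: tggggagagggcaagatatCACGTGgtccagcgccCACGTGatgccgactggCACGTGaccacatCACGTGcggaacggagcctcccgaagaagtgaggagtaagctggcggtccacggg
Mcoln1: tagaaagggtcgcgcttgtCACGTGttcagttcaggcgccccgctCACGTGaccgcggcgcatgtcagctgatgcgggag

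Antioxidant genes split. Of 28 tested NRF2 targets, 5 were higher and 11 lower (median -0.06), with a pair of large rises against many small falls. Osgin1, an oxidative stress growth inhibitor, stood at 157, 166 and 155 FPKM in the FFA libraries and 337, 330 and 342 FPKM in the FFA_SIN libraries (log2 fold change 1.08 ± 0.03, adjusted p = 1.5e-06). Hmox1 (ENSMUSG00000005413), heme oxygenase, stood at 37.7, 40.7 and 39.3 FPKM in the FFA libraries and 77.8, 79.4 and 84.9 FPKM in the FFA_SIN libraries (log2 fold change 1.02 ± 0.04, adjusted p = 5.99e-06). These were the only members of the list that changed at least 2-fold. Txnrd1 and Gclm, of thioredoxin reduction and glutathione synthesis, rose, Txnrd1 from 38.9 ± 0.384 to 44.9 ± 0.321 FPKM (log2 fold change 0.20 ± 0.02) and Gclm from 51.4 ± 1.46 to 58.2 ± 0.416 FPKM (log2 fold change 0.17 ± 0.03). Gclc, the partner of Gclm, fell from 251 ± 0.563 to 221 ± 3.26 FPKM (log2 fold change -0.18 ± 0.02). G6pdx, which supplies NADPH, fell from 31.4 ± 0.569 to 24.7 ± 0.399 FPKM (log2 fold change -0.33 ± 0.02). Gstm1, a transferase of glutathione, fell from 513 ± 9.39 to 429 ± 7.14 FPKM (log2 fold change -0.26 ± 0.02). Nqo1 was below the filter, with means of 0.76 and 0.791 FPKM. The NRF2 gene Nfe2l2 did not pass (log2 fold change 0.01 ± 0.02, adjusted p = 0.848). The letters TGACNNNGC of the antioxidant element occurred in 9 of 27 list genes with a window (33.3%), against 14% of all genes with one, and of those 9, 2 rose and 2 fell. The list was made of NRF2 targets, so the higher share is not a result of these data.

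Among 15 genes that remove peroxide and superoxide, 3 were higher and 4 lower (median -0.04). Catalase, Cat, stood at 203, 204 and 207 FPKM in the FFA libraries and 270, 268 and 266 FPKM in the FFA_SIN libraries (log2 fold change 0.39 ± 0.02, adjusted p = 1.12e-05). It was the largest change of that list. Iron genes were higher in 7 and lower in 3 of 15 tested (median 0.1), among them the plasma carrier Trf. It rose from 771 ± 8.21 to 1019 ± 5.88 FPKM (log2 fold change 0.40 ± 0.02). The exporter Slc40a1 rose from 13.2 ± 0.132 to 17 ± 0.591 FPKM (log2 fold change 0.34 ± 0.03).

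**Figure D4:**
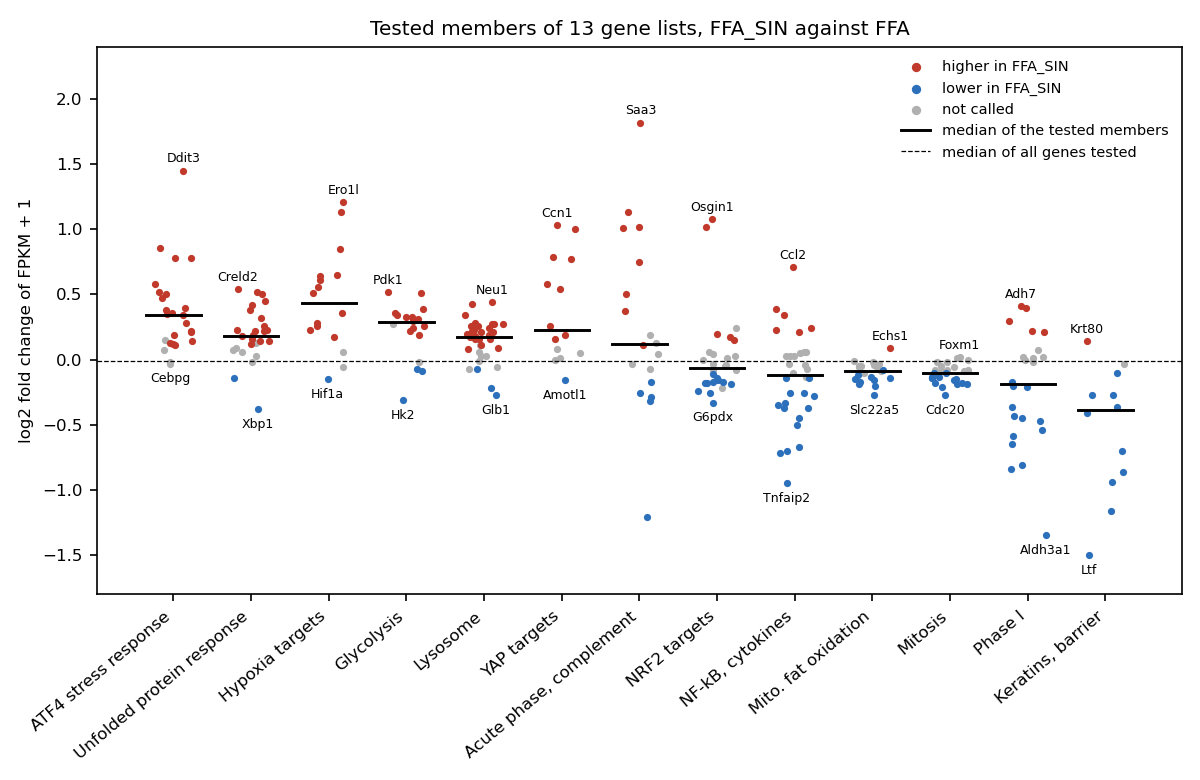
Log2 fold change of FPKM + 1 between FFA_SIN and FFA for the tested members of 13 gene lists, each dot a gene (red called higher, blue called lower, grey not called), with the list's median as a bar and the median of all genes tested as a dashed line. The lists on the left have medians of 0.12 to 0.43 and those on the right medians of -0.06 to -0.39, and single members such as Ddit3 (1.45), Saa3 (1.82) and Ltf (-1.50) lie far from their list's median.

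The plot of list members shows that the NF-kB list holds changes of both directions. Inflammatory genes fell more often than they rose, with Ccl2 as the main exception. Of 32 tested NF-kB and cytokine genes, 6 were higher and 15 lower (median -0.11). Tnfaip2, a gene induced by TNF, stood at 17.1, 17.3 and 16.5 FPKM in the FFA libraries and 8.03, 8.31 and 8.51 FPKM in the FFA_SIN libraries (log2 fold change -0.95 ± 0.03, adjusted p = 2.69e-06). Nfkbiz, a nuclear cofactor that NF-kB needs for a subset of cytokine genes, stood at 37.6, 39.6 and 38.4 FPKM in the FFA libraries and 22.6, 22.5 and 23.7 FPKM in the FFA_SIN libraries (log2 fold change -0.72 ± 0.03, adjusted p = 6.72e-06). In both, every FFA_SIN library was below every FFA library. Tnf was low and fell from 1.99 ± 0.182 to 0.879 ± 0.108 FPKM (log2 fold change -0.67 ± 0.07), the prostaglandin enzyme Ptgs2 fell from 6.76 ± 0.26 to 4.51 ± 0.258 FPKM (log2 fold change -0.50 ± 0.05). Nos2, which makes nitric oxide, fell from 9.68 ± 0.443 to 7.28 ± 0.134 FPKM (log2 fold change -0.37 ± 0.04). The inhibitor Nfkbia, itself induced by NF-kB, fell from 71.6 ± 2.24 to 59.6 ± 0.528 FPKM (log2 fold change -0.26 ± 0.03).

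The chemokines of the list did not all move one way. The neutrophil attractant Cxcl5, the most abundant chemokine of the list per length, stood at 1770, 1704 and 1771 FPKM in the FFA libraries and 1291, 1289 and 1247 FPKM in the FFA_SIN libraries (log2 fold change -0.45 ± 0.02, adjusted p = 2.27e-05). Cxcl1 and Cxcl2, which bind the same receptor, fell, Cxcl1 from 156 ± 5.08 to 128 ± 3.94 FPKM (log2 fold change -0.28 ± 0.03) and Cxcl2 from 3.08 ± 0.141 to 2.14 ± 0.119 FPKM (log2 fold change -0.37 ± 0.05). The membrane-bound Cx3cl1 fell from 2.44 ± 0.051 to 1.12 ± 0.154 FPKM (log2 fold change -0.70 ± 0.06). Ccl2, which draws in monocytes, stood at 339, 318 and 337 FPKM in the FFA libraries and 539, 532 and 558 FPKM in the FFA_SIN libraries (log2 fold change 0.71 ± 0.03, adjusted p = 9.33e-06). Its levels in FFA_SIN all exceeded those in FFA. Ccl7, a relative with overlapping receptors, rose from 28.1 ± 1.94 to 33.3 ± 1.36 FPKM (log2 fold change 0.24 ± 0.05, adjusted p = 0.0142), Ccl20, which attracts dendritic and T cells, rose from 52.3 ± 1.29 to 66.3 ± 0.968 FPKM (log2 fold change 0.34 ± 0.02). The macrophage growth factor Csf1 rose from 62.6 ± 1.81 to 82.1 ± 0.761 FPKM (log2 fold change 0.39 ± 0.03). The granulocyte growth factor Csf3, not in the list, rose from 15.2 ± 0.778 to 24.1 ± 0.903 FPKM (log2 fold change 0.63 ± 0.04). Il6 was near 0, with means of 0.0154 and 0.0143 FPKM.

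**Figure D5:**
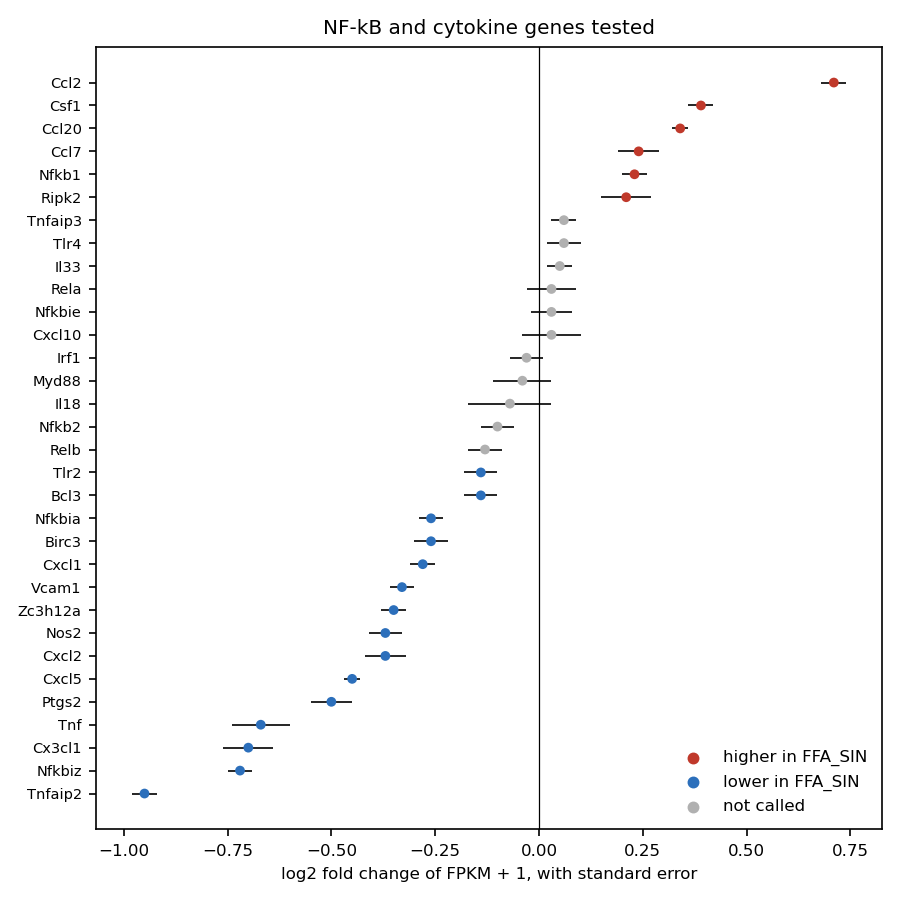
Log2 fold change of FPKM + 1 between FFA_SIN and FFA with its standard error for the 32 tested NF-kB and cytokine genes, red for the 6 called higher, blue for the 15 called lower and grey for the rest. Ccl2 (0.71) stands at the top and Tnfaip2 (-0.95) at the bottom, and the subunits Rela, Relb and Nfkb2 lie among the genes not called.

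In the plot of NF-kB genes the subunits Rela (log2 fold change 0.03 ± 0.06, adjusted p = 0.732), Relb (log2 fold change -0.13 ± 0.04, adjusted p = 0.0666) and Nfkb2 (log2 fold change -0.10 ± 0.04, adjusted p = 0.0748) did not pass, and Nfkb1 rose (log2 fold change 0.23 ± 0.03, adjusted p = 0.0027). Of the gasdermins, caspases and inflammasome genes, 0 of 9 tested were higher and 3 lower (median -0.14). Gsdmd, the pore protein of pyroptosis, stood at 152, 148 and 150 FPKM in the FFA libraries and 114, 115 and 113 FPKM in the FFA_SIN libraries (log2 fold change -0.39 ± 0.02, adjusted p = 1.49e-05). Casp1, which cleaves it, fell from 4.58 ± 0.067 to 3.45 ± 0.0912 FPKM (log2 fold change -0.33 ± 0.03). Both groups of Gsdmd libraries were tight and apart. Nlrp3 and Pycard, core inflammasome genes, were at or near 0. Genes of antigen presentation and interferon response were too low to test in 12 of 20 cases, and of the 8 tested 6 were higher and 0 lower (median 0.16), such as Bst2, from 56.1 ± 3.7 to 67.2 ± 1.87 FPKM (log2 fold change 0.26 ± 0.05), and B2m, from 447 ± 5.22 to 494 ± 16.3 FPKM (log2 fold change 0.14 ± 0.03), whose call was lost under quantile normalization.

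Several plasma protein genes of the hepatocyte rose. Alb (ENSMUSG00000029368), albumin, stood at 272, 271 and 271 FPKM in the FFA libraries and 559, 554 and 553 FPKM in the FFA_SIN libraries (log2 fold change 1.03 ± 0.02, adjusted p = 2.86e-07). Rbp4, the retinol carrier, stood at 122, 121 and 125 FPKM in the FFA libraries and 188, 190 and 196 FPKM in the FFA_SIN libraries (log2 fold change 0.64 ± 0.02, adjusted p = 3.77e-06). The FFA_SIN libraries of both lay well above the FFA libraries. Gc, the vitamin D carrier, rose from 69.2 ± 0.967 to 110 ± 2.88 FPKM (log2 fold change 0.66 ± 0.02). Ttr, the thyroxine carrier, rose from 558 ± 7.59 to 697 ± 8.45 FPKM (log2 fold change 0.32 ± 0.02). In the acute phase and complement list 8 of 18 tested were higher and 5 lower (median 0.12). Haptoglobin, Hp, rose from 10.5 ± 0.322 to 24 ± 0.725 FPKM (log2 fold change 1.13 ± 0.03), ceruloplasmin, Cp, rose from 107 ± 1.23 to 181 ± 5.14 FPKM (log2 fold change 0.75 ± 0.03). Hemopexin, Hpx, rose from 95.8 ± 1.13 to 124 ± 3.35 FPKM (log2 fold change 0.37 ± 0.02). Lbp, which presents bacterial lipopolysaccharide, fell from 397 ± 2.27 to 325 ± 4.23 FPKM (log2 fold change -0.29 ± 0.02). Saa1, the main acute phase amyloid of liver, was near 0 with means of 0.0712 and 0.0618 FPKM. Lcn2, an acute phase protein of injured epithelia, did not pass (from 226 ± 6.68 to 221 ± 4.73 FPKM, log2 fold change -0.03 ± 0.03, adjusted p = 0.456).

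Transcription factors of the hepatocyte went in both directions. Hnf4a, the central factor of liver identity, fell from 118 ± 1.71 to 104 ± 1.16 FPKM (log2 fold change -0.18 ± 0.02), Prox1 rose from 3.91 ± 0.121 to 5.19 ± 0.343 FPKM (log2 fold change 0.33 ± 0.05). Hhex rose from 14.7 ± 0.283 to 25 ± 0.0817 FPKM (log2 fold change 0.73 ± 0.02), while Foxa2 did not pass (log2 fold change 0.04 ± 0.05, adjusted p = 0.571). The hepatocyte identity list held 13 tested genes, 6 higher and 4 lower (median 0.04). Of its 28 genes in the table, 15 were below the filter, among them Ahsg and Ass1, listed at 0 in all 6 libraries.

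Most lipid lists had medians close to that of all genes tested. Of 22 mitochondrial fatty acid oxidation genes tested, 1 was higher and 10 lower (median -0.08), and the lowest log2 fold change was -0.27. Cpt1a, which admits fatty acids to mitochondria, did not pass (from 68.9 ± 1.32 to 67.3 ± 0.775 FPKM, log2 fold change -0.03 ± 0.02, adjusted p = 0.302), Cpt2 fell from 18.2 ± 0.889 to 15.8 ± 0.505 FPKM (log2 fold change -0.20 ± 0.04, adjusted p = 0.0107). Hadha and Hadhb, the subunits of the trifunctional enzyme, fell, Hadha from 33.4 ± 0.465 to 30 ± 0.146 FPKM (log2 fold change -0.15 ± 0.02) and Hadhb from 14.3 ± 0.252 to 12.6 ± 0.366 FPKM (log2 fold change -0.17 ± 0.03). The peroxisomal list had 4 higher and 3 lower of 17 (median -0.05), with Acox2, the oxidase of branched chains and bile acid precursors, highest at from 22.5 ± 0.601 to 37.4 ± 0.203 FPKM (log2 fold change 0.71 ± 0.03).

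Among 8 tested PPAR alpha targets outside oxidation, 2 were higher and 4 lower (median -0.12). Ucp2, an uncoupling protein, stood at 15.1, 15.8 and 14.6 FPKM in the FFA libraries and 7.46, 7.62 and 8.33 FPKM in the FFA_SIN libraries (log2 fold change -0.88 ± 0.05, adjusted p = 2.04e-05). Fabp1, the liver fatty acid binding protein, fell from 2.09 ± 0.782 to 0.778 ± 0.394 FPKM (log2 fold change -0.79 ± 0.21, adjusted p = 0.0306), the transporter Cd36 fell from 5.67 ± 0.294 to 3.82 ± 0.167 FPKM (log2 fold change -0.47 ± 0.05). Angptl4, an inhibitor of lipoprotein lipase, fell from 11.4 ± 0.216 to 9.07 ± 0.527 FPKM (log2 fold change -0.30 ± 0.04). Acot1 rose from 91.9 ± 1.04 to 106 ± 2.74 FPKM (log2 fold change 0.21 ± 0.02), though it shares much of its sequence with Acot2. Ppara itself was below the filter at means of 0.369 and 0.35 FPKM.

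Lipid droplet genes were higher in 5 and lower in 2 of 13 tested (median 0.08). Plin2, the main droplet coat of hepatocytes, stood at 163, 161 and 158 FPKM in the FFA libraries and 189, 193 and 195 FPKM in the FFA_SIN libraries (log2 fold change 0.26 ± 0.02, adjusted p = 0.000135). It was higher in each FFA_SIN library than in any FFA library. Hilpda, an inhibitor of droplet lipolysis that is also induced by low oxygen, rose from 11 ± 0.222 to 15.3 ± 0.886 FPKM (log2 fold change 0.43 ± 0.04). Abhd5, the cofactor of that lipolysis, rose from 3.7 ± 0.135 to 4.5 ± 0.0475 FPKM (log2 fold change 0.23 ± 0.04). The lipase gene Pnpla2 did not pass (log2 fold change 0.08 ± 0.04, adjusted p = 0.13). In fatty acid and glycerolipid synthesis 4 of 23 tested were higher and 7 lower (median -0.02). The desaturase Scd2 rose from 541 ± 18.6 to 673 ± 15.9 FPKM (log2 fold change 0.32 ± 0.03), Scd1 did not pass (log2 fold change 0.03 ± 0.02, adjusted p = 0.267), Fads2 fell from 162 ± 3.35 to 141 ± 0.328 FPKM (log2 fold change -0.20 ± 0.02). The regulator Srebf1 rose from 65.6 ± 1.4 to 75.8 ± 2.28 FPKM (log2 fold change 0.21 ± 0.03).

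Cholesterol synthesis leaned down by small amounts, with 6 of 25 higher and 11 lower (median -0.08). Stard4, a cytosolic sterol carrier, fell from 26.7 ± 0.257 to 21.3 ± 0.818 FPKM (log2 fold change -0.31 ± 0.03). The regulator Srebf2 fell from 104 ± 3.23 to 91.6 ± 2.27 FPKM (log2 fold change -0.18 ± 0.03). Insig1, which holds back SREBP activation, rose from 24.3 ± 0.862 to 30.3 ± 0.0895 FPKM (log2 fold change 0.31 ± 0.03). Sterol efflux genes had 3 higher and 2 lower of 7 (median -0.03), and lipoprotein genes 0 higher and 2 lower of 5 (median 0.01).

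Epithelial structure genes fell. Of 12 tested keratins and barrier genes, 10 were lower and 1 higher (median -0.39). Krt19, a keratin of bile ducts, stood at 1255, 1269 and 1251 FPKM in the FFA libraries and 972, 966 and 996 FPKM in the FFA_SIN libraries (log2 fold change -0.36 ± 0.02, adjusted p = 2.26e-05). Krt20, a keratin of gut lining, stood at 312, 297 and 306 FPKM in the FFA libraries and 187, 187 and 189 FPKM in the FFA_SIN libraries (log2 fold change -0.70 ± 0.02, adjusted p = 2.75e-06). All FFA_SIN levels were below all FFA levels in both. Krt8 fell from 1258 ± 11 to 1046 ± 15.8 FPKM (log2 fold change -0.27 ± 0.02), Krt18, its partner in hepatocytes, fell less, from 1260 ± 7.62 to 1172 ± 23.3 FPKM (log2 fold change -0.10 ± 0.02). Krt4 of squamous lining fell from 4.65 ± 0.527 to 1.93 ± 0.251 FPKM (log2 fold change -0.94 ± 0.09). Sprr1a, of the cornified envelope, fell from 181 ± 9.22 to 99 ± 4.36 FPKM (log2 fold change -0.86 ± 0.04). Junction genes had 7 of 12 lower and 1 higher (median -0.12). Gjb1, the main gap junction protein of hepatocytes, stood at 88.5, 93 and 90.1 FPKM in the FFA libraries and 50.8, 49.5 and 50.9 FPKM in the FFA_SIN libraries (log2 fold change -0.83 ± 0.03, adjusted p = 2.34e-06). Tjp1 of tight junctions fell from 52.1 ± 1.13 to 44.5 ± 0.861 FPKM (log2 fold change -0.22 ± 0.03) and the cadherin Cdh1 from 80.7 ± 2.23 to 72.6 ± 1.28 FPKM (log2 fold change -0.15 ± 0.03). Cldn12 rose from 16.1 ± 0.464 to 20.7 ± 0.398 FPKM (log2 fold change 0.34 ± 0.03).

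Drug metabolism fell in both phases. Of 24 tested phase I genes, 13 were lower and 5 higher (median -0.19), and of 15 phase II genes, 8 were lower and 2 higher (median -0.2). Aldh1a7 and Aldh1a1, closely related enzymes that may share reads, fell, Aldh1a7 from 27 ± 0.732 to 14.7 ± 0.382 FPKM (log2 fold change -0.84 ± 0.03) and Aldh1a1 from 56 ± 1.2 to 40.3 ± 1.03 FPKM (log2 fold change -0.47 ± 0.03). Cyp2s1 fell from 53.4 ± 2.26 to 33.7 ± 0.259 FPKM (log2 fold change -0.65 ± 0.03) and the monooxygenase Fmo1 from 15.5 ± 0.322 to 9.96 ± 0.31 FPKM (log2 fold change -0.59 ± 0.03). Cyp1a1, the marker of the aryl hydrocarbon receptor, was low and fell from 1.51 ± 0.0133 to 0.863 ± 0.0457 FPKM (log2 fold change -0.43 ± 0.05). The receptor Ahr rose from 6.16 ± 0.113 to 7.85 ± 0.292 FPKM (log2 fold change 0.30 ± 0.03). The xenobiotic sensor Nr1i2 fell from 9.41 ± 0.265 to 7.08 ± 0.0692 FPKM (log2 fold change -0.36 ± 0.03). Cyp2d26 and Cyp2d10, members of a family with near copies, fell, Cyp2d26 from 28.5 ± 0.84 to 13 ± 0.052 FPKM (log2 fold change -1.07 ± 0.03) and Cyp2d10 from 9.34 ± 0.296 to 3.99 ± 0.21 FPKM (log2 fold change -1.05 ± 0.04). Among conjugating enzymes, the sulfotransferases Sult1a1 and Sult1d1 fell, Sult1a1 from 10.5 ± 0.14 to 5.84 ± 0.255 FPKM (log2 fold change -0.75 ± 0.03) and Sult1d1 from 56.3 ± 1.03 to 36.6 ± 1.32 FPKM (log2 fold change -0.61 ± 0.03). The glucuronosyltransferase Ugt2b34 stood at 206, 207 and 208 FPKM in the FFA libraries and 150, 148 and 140 FPKM in the FFA_SIN libraries (log2 fold change -0.50 ± 0.03, adjusted p = 3.05e-05). Drug and bile transporters had 3 higher and 4 lower of 8 (median -0.03).

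YAP targets, which respond to cell shape and tension, were higher in 9 of 14 and lower in 1 (median 0.23). Ccn1, a matricellular protein, stood at 18.2, 18.9 and 17.9 FPKM in the FFA libraries and 36.5, 39.3 and 39.6 FPKM in the FFA_SIN libraries (log2 fold change 1.03 ± 0.04, adjusted p = 3.7e-06). Amotl2, a feedback inhibitor of YAP, stood at 20.1, 21.1 and 20.4 FPKM in the FFA libraries and 40.1, 42.5 and 43.5 FPKM in the FFA_SIN libraries (adjusted p = 3.69e-06). Every FFA_SIN library was above every FFA library in both. Ankrd1 rose from 29.2 ± 0.765 to 50.4 ± 0.438 FPKM (log2 fold change 0.77 ± 0.02), Ccn2 from 49.7 ± 1.36 to 74.6 ± 1.21 FPKM (log2 fold change 0.58 ± 0.03) and Nuak2 from 25.4 ± 0.603 to 44.6 ± 0.829 FPKM (log2 fold change 0.79 ± 0.03). Yap1 itself did not pass (log2 fold change 0.05 ± 0.02, adjusted p = 0.188). The TGF beta and matrix list went mostly the other way, with 3 of 24 higher and 12 lower (median -0.1). Fibronectin, Fn1, a main protein of the matrix, fell from 35.7 ± 0.637 to 21 ± 0.334 FPKM (log2 fold change -0.74 ± 0.02). The inhibitors of differentiation Id1 and Id2, direct targets of BMP signals, fell, Id1 from 283 ± 1.17 to 232 ± 3.93 FPKM (log2 fold change -0.29 ± 0.02) and Id2 from 178 ± 2.64 to 139 ± 2.45 FPKM (log2 fold change -0.35 ± 0.02).

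Growth genes leaned down slightly. Of 27 mitosis genes, 0 were higher and 15 lower (median -0.1), and of 30 DNA replication genes 1 was higher and 8 lower (median -0.06), a count of 8 that was 1 without a filter on low values and 3 to 4 when a library was left out. Cdc20, an activator of mitotic exit, fell from 28.2 ± 1.36 to 23.1 ± 0.623 FPKM (log2 fold change -0.27 ± 0.04). The proliferation marker Mki67 fell from 23.9 ± 0.414 to 20.8 ± 0.422 FPKM (log2 fold change -0.19 ± 0.03). The p53 and BCL2 list was higher in 16 and lower in 0 of 29 (median 0.11). Cdkn1a, the p21 inhibitor of the cell cycle, rose from 50.1 ± 1.79 to 63.4 ± 1.44 FPKM (log2 fold change 0.34 ± 0.03). The survival factors Bcl2 and Mcl1 rose, Bcl2 from 1.92 ± 0.133 to 3.11 ± 0.14 FPKM (log2 fold change 0.49 ± 0.05) and Mcl1 from 55.2 ± 1.01 to 63.7 ± 0.489 FPKM (log2 fold change 0.20 ± 0.02). The death factor Bmf rose from 39 ± 1.04 to 45.1 ± 0.377 FPKM (log2 fold change 0.21 ± 0.02), and the death factors Bax (log2 fold change 0.03 ± 0.02, adjusted p = 0.322) and Bbc3 (log2 fold change 0.00 ± 0.05, adjusted p = 0.993) did not pass. Immediate early and ERK feedback genes had 5 higher and 7 lower of 28 (median -0.05), with Dusp1, a phosphatase, up from 7.08 ± 0.525 to 11.6 ± 0.374 FPKM (log2 fold change 0.64 ± 0.05) and Klf10 down from 14 ± 0.171 to 10.3 ± 0.225 FPKM (log2 fold change -0.41 ± 0.03).

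FOXO and fasting targets were higher in 6 and lower in 1 of 12 (median 0.1). Depp1, a FOXO target of fasting, stood at 9.78, 8.53 and 9.11 FPKM in the FFA libraries and 21, 21.3 and 22.4 FPKM in the FFA_SIN libraries (log2 fold change 1.15 ± 0.05, adjusted p = 7.5e-06). Irs2, a docking protein of the insulin receptor, rose from 7.19 ± 0.145 to 11.1 ± 0.511 FPKM (log2 fold change 0.57 ± 0.04) and Klf15 from 8.44 ± 0.104 to 11.8 ± 0.536 FPKM (log2 fold change 0.44 ± 0.04). Txnip, which limits glucose uptake and rises with glucose, fell from 18.1 ± 0.492 to 11.4 ± 0.34 FPKM (log2 fold change -0.62 ± 0.03). The clock list had 2 higher and 2 lower of 13 (median 0.03), with Nfil3 up from 5.22 ± 0.322 to 7.41 ± 0.433 FPKM (log2 fold change 0.44 ± 0.05). Of 11 tested secreted hepatic factors, 3 were higher and 1 lower (median 0.09), of 11 polyamine and histamine enzymes 2 and 2 (median 0.03), and of 11 long noncoding RNAs 5 and 1 (median 0.11). Among the last, Snhg12, a host of small nucleolar RNAs, rose from 2.97 ± 0.221 to 4.87 ± 0.305 FPKM (log2 fold change 0.57 ± 0.06). The paraspeckle RNA Neat1 fell from 42.9 ± 0.242 to 31.1 ± 0.163 FPKM (log2 fold change -0.45 ± 0.02).

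Some large machines of the cell held few called genes in the main fit, set against 29.3% of all genes tested. The shares were 11.9% for the nuclear-encoded respiratory chain, 6.41% for mitochondrial ribosomal proteins and 10.5% for cytosolic ribosomal proteins. Ribosome biogenesis factors (23.3%) and proteasome subunits (23.7%) were nearer the share of all genes, and mitochondrially encoded proteins (38.5%) were above it. Of 42 nuclear-encoded respiratory chain genes, 3 were higher and 2 lower (median 0.01), and of 78 mitochondrial ribosomal proteins 2 were higher and 3 lower (median -0.02). Cytosolic ribosomal proteins had 7 higher and 1 lower of 76 (median 0.04), ribosome biogenesis factors 5 and 2 of 30 (median 0.03) and proteasome subunits 3 and 6 of 38 (median -0.02). Of the 13 mitochondrially encoded proteins 5 were higher and 0 lower (median 0.09), but only 2 were higher under quantile normalization, without FFA replicate 1 or without FFA_SIN replicate 2, and 0 without a filter on low values. The most abundant transcript, mt-Co1, did not pass (from 11825 ± 66.6 to 11536 ± 459 FPKM, log2 fold change -0.04 ± 0.03, adjusted p = 0.427).

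The cells carried hepatocyte markers only in part. Of 10 such markers 7 were tested, 4 higher and 2 lower, and Trf stood at 778, 774 and 762 FPKM in the FFA libraries and 1022, 1012 and 1022 FPKM in the FFA_SIN libraries. Cps1, Tat and Serpina1c were below the filter, and Cps1, of the urea cycle, stood at 0.579, 0.591 and 0.441 FPKM in the FFA libraries and 1.33, 1.54 and 1.42 FPKM in the FFA_SIN libraries. Of 8 bile duct markers 5 were tested, with Sox9 (log2 fold change 0.36 ± 0.05, adjusted p = 0.00115) and Spp1 (log2 fold change 0.27 ± 0.02, adjusted p = 0.000141) higher and Krt7 (log2 fold change -0.27 ± 0.02, adjusted p = 0.00025) and Krt19 lower. Spp1 and Krt19 were abundant, and Epcam was at or near 0. Of the macrophage markers, the summed level was 628 to 634 FPKM in FFA and 454 to 475 FPKM in FFA_SIN, nearly all of it Cd14 (log2 fold change -0.45 ± 0.02, adjusted p = 1.48e-05), with the pan-leukocyte gene Ptprc at means of 0.00786 and 0.00919 FPKM. Endothelial markers summed to 0.276 to 0.367 FPKM in FFA and 0.205 to 0.233 FPKM in FFA_SIN, and of the fibroblast markers Des alone was tested (from 5.81 ± 0.473 to 2.94 ± 0.0758 FPKM, log2 fold change -0.79 ± 0.05, adjusted p = 7.16e-05), with Col1a1 at means of 0.381 and 0.303 FPKM. What part these markers have in the changes above was not tested.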

How the data were processed

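RNA was isolated with a mirVana kit, samples of an RNA integrity number of at least 7 were taken, and libraries were made with TruSeq Stranded Total RNA, per the labels' protocols. Trimmomatic, HISAT2 and GRCm39 are named in the submitters' processing notes. How reads were counted, with which annotation and strandedness, is not stated by any source used here. The authors deposited a table of values per gene, which were read as FPKM. Of 45996 values below 0.5 FPKM, 99.14% were whole multiples of what 1 read is worth (tolerance 0.01), from which the depth was taken. That worth was fitted to each gene's own values, so a gene with only 1 value above 0 matches by construction. The share is therefore not a test of the unit or of the depth. Without a known strand setting, overlapping and antisense genes cannot be told apart.

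Symbols came from GENCODE vM21 by gene ID (94.8% matched) and promoter windows from RefSeq GRCm38.p6. Only the 3 FFA and 3 FFA_SIN libraries were used. Genes averaging 1 FPKM or more over them were fitted by limma 3.58.1 (R 4.3.3) after adding 1 FPKM and taking log2 (variance trend, two-sided, Benjamini-Hochberg over all 11628 genes, threshold 0.05), which was tested on simulated data. Figures were drawn with matplotlib 3.10.9. Alternatives were 2 pseudocounts, 2 filters, 3 scalings, no variance trend, a replicate block and leaving out each library.

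Members and lists were chosen with earlier results of these data known. Genes named are the 12 largest rises and 12 largest falls without overlap, among protein-coding and long noncoding genes with a curated symbol and at least 5 FPKM in the higher group, up to 5 changed members of each list by adjusted p with the list's first gene, a fixed set of lipid, stress and inflammation genes, and the 5 most abundant genes. Other genes named were chosen after their values were seen. Some genes of these sets are not reported here.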

Additional observations from a re-analysis of the deposited data

How the results depend on the processing

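The count of genes changed was 3406 and ranged from 2584 to 3412 over 15 alternatives, with 1191 to 1701 higher and 1393 to 1959 lower. Leaving out each library in turn gave 2584 to 2885 genes, 1191 to 1340 of them higher and 1393 to 1584 lower. The balance of directions moved with the scaling: median-of-ratios size factors gave 1701 higher and 1678 lower, quantile normalization gave 1675 higher and 1708 lower, and scaling to an equal sum (TPM) gave 1453 higher and 1959 lower. Without a filter 2729 genes were called. Whether equal replicate numbers mark a shared day or culture is not stated. The correlations of deviations for equal numbers (0.054, -0.03 and 0.01) do not settle this, and a replicate block gave 2911 calls. Under that block 17 cytosolic ribosomal protein genes were higher and 1 lower, against 7 and 1, and 5 mitochondrially encoded genes were higher and 3 lower, against 5 and 0. Of 272 named genes called, 41 were lost in at least 1 alternative. Under quantile normalization the log2 fold changes of Eef1a1, mt-Nd2 and mt-Nd5 reversed to -0.00. The cause was not tested. With 3 libraries per group that may be technical repeats, small changes are limited by the spread between these libraries rather than by depth.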

Other observations

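Some genes with large changes were not members of the gene lists, and they were chosen after their values were seen. Creb3l1, a membrane-bound transcription factor of secretory cells, fell from 4.22 ± 0.285 to 0.992 ± 0.178 FPKM (log2 fold change -1.39 ± 0.08), and Cd177, a surface protein of neutrophils, fell from 9.39 ± 0.504 to 3.34 ± 0.0798 FPKM (log2 fold change -1.26 ± 0.04). Slc28a3, a nucleoside importer, fell from 5.63 ± 0.0826 to 2.01 ± 0.109 FPKM (log2 fold change -1.14 ± 0.04), and Akr1b7, an aldose reductase relative, fell from 160 ± 1.62 to 85.1 ± 0.822 FPKM (log2 fold change -0.90 ± 0.02). In the other direction, Eno2, an enolase best known from neurons, rose from 1.55 ± 0.14 to 4.24 ± 0.222 FPKM (log2 fold change 1.04 ± 0.06). Enolases are enzymes of glycolysis, but Eno2 was not in the glycolysis list, whose highest log2 fold change was 0.52. Gm10241, a gene model named only by number, had 127, 173 and 49.6 FPKM in the FFA libraries and 19.5, 24.4 and 62.5 FPKM in the FFA_SIN libraries. Its groups overlapped and it did not pass (log2 fold change -1.70 ± 0.55, adjusted p = 0.0569), despite a large difference between the means.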
